A study of Mus musculus with 24 samples.

Results

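The kidneys compared here came from mice labelled PLD4-/- (KO) and PLD4+/+ (WT) at day 10 of unilateral ureteral obstruction (UUO). In this model one ureter is tied off, the kidney above it dilates, its tubules are damaged, and leukocytes and fibroblasts fill the space between them. The members are the 4 KO and 4 WT libraries whose labels give that treatment and day, 8 of 24 in the study, and they are described across all genes. The other libraries are the same genotypes in control kidneys (day 0) and at day 5 of UUO, 4 in each group, and they entered the model only through the shared spread and the tests between days. The labels give no age, sex, strain, deleted part of the gene or day of surgery. They do not say whether each library was a separate mouse, so p-values measure spread between libraries. That spread is pooled over all 24 libraries, and is not the spread of the 8 compared libraries alone.

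Pld4 is a transmembrane protein of endosomes and lysosomes in phagocytes, dendritic cells and B cells. It removes nucleotides from the 5′ end of single-stranded DNA and RNA, which limits the ligands that reach the nucleic acid sensors Tlr7 and Tlr9. Obstructed kidneys recruit monocytes, macrophages, neutrophils and T cells, and their proteases, cytokines and chemokines are part of the tissue remodelling that ends in fibrosis.

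The labelled tissue was checked with tubule markers. Umod, the uromodulin of the thick ascending limb, had 3500, 2030, 3280 and 3190 counts scaled to library size (CPM) in KO replicates 1 to 4, against 2290, 112, 875 and 3750 CPM in WT replicates 1 to 4. All 8 libraries held kidney RNA by this marker, with WT replicate 2 the lowest and WT replicate 3 the next lowest. Kdm5d, a histone demethylase gene of the Y chromosome, had 31.3 to 41.0 CPM in KO and 26.2 to 36.2 CPM in WT, so the 8 libraries did not separate by it. In control kidneys it averaged 23.3 CPM ± 15.6 in KO and 27.7 ± 1.39 in WT (SD), so the KO control libraries were uneven for it. Total counts ran from 13899479 to 17939743 at day 10, and no pair of libraries of the same genotype agreed within counting noise.

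WT replicates 2 and 3 lay apart from the other 6 libraries before any gene was tested. The first principal component of log2 CPM held 67.5% of the variance of the 8 libraries, and on it WT replicate 2 was at 109.4 and WT replicate 3 at 79.62. The 4 KO libraries lay between -45.03 and -18.75, and WT replicates 1 and 4 at -19.25 and -50.89. Genes varied more among the WT libraries than among the KO libraries: log2 CPM spanned over 2 in 195 genes in KO (1.29% of 15080) and in 2305 genes in WT (15.3%). The calls below are therefore given with all libraries and without WT replicates 2 and 3, and by library for the genes that the results turn on.

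**Figure D1:**
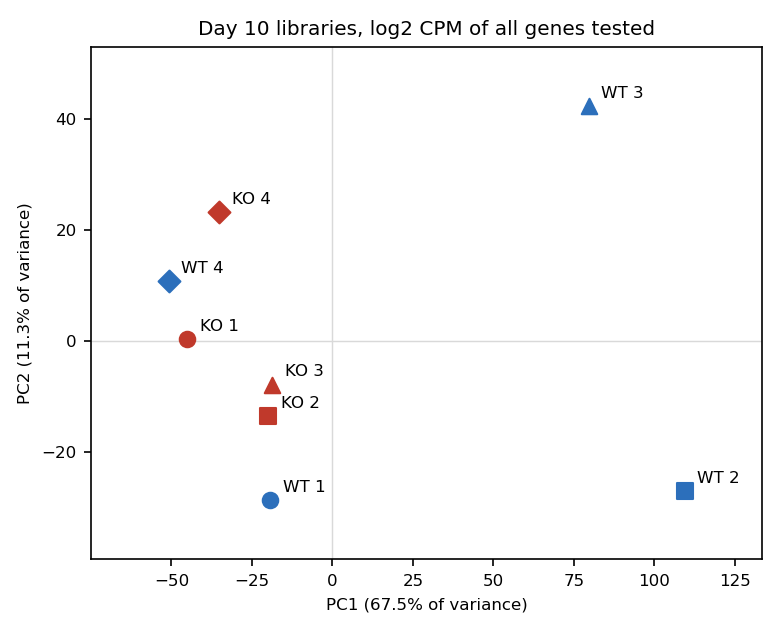
First and second principal component (share of variance in the axis labels) of log2 CPM of the genes tested in the 4 KO (red) and 4 WT (blue) day 10 libraries, with 1 symbol per replicate number. WT replicates 2 and 3 lie at 109.4 and 79.62 on the first component, and the other 6 libraries between -50.89 and -18.75.

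With all libraries, 212 of 15080 genes (1.41%) differed between KO and WT at an adjusted p under 0.05 (edgeR's quasi-likelihood test, Benjamini-Hochberg adjustment over all genes tested). Of these, 21 were higher (0.139%) and 191 lower (1.27%) in KO, and the median log2 fold change of all genes was -0.0172. Among the 191 lower genes, WT replicates 2 and 3 were the highest pair of the 8 libraries in 181, against 3148 of all genes tested (20.9%). Without these libraries, 69 of 15294 genes were called (0.451%), 61 higher (0.399%) and 8 lower (0.0523%). The 2 fits shared 16 calls, 11 higher and 5 lower. The median log2 fold change of the 191 lower genes was -2.82 with all libraries and -0.182 without WT replicates 2 and 3, and 132 kept their sign. That of the 21 higher genes was 2.19 and 2.01, and 21 kept their sign.

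The count of calls also depended on the spread used, on the replicate number and on single libraries. With the spread taken from the 8 day 10 libraries alone, edgeR called 0 genes. Same-numbered KO and WT libraries deviated together weakly from their group means (correlations 0.141 to 0.306). Other numbers matched better for KO replicate 1 (0.494 with WT replicate 4) and KO replicate 3 (0.364 with WT replicate 2). The numbers are thus not shown to pair the libraries. With 1 effect per replicate number in the model 19 genes were called (0.126%), 8 higher (0.0531%) and 11 lower (0.0729%), all among the 212. Without any 1 KO library, 23 to 33 genes were called. Leaving out WT replicate 1 gave 1101 calls and leaving out WT replicate 4 gave 2045, whereas 48 were called without WT replicate 2 and 201 without WT replicate 3. Only 20 of the 212 were called in all 8 of these fits: 1700112E06Rik, Adss, Apol9a, Gm15446, Pydc3 and Serpina1e, which were higher, and Arg1, Clec4d, Clec4e, Cxcl3, Cxcr2, F10, F13a1, F7, Il1r2, Mmp12, Mmp8, S100a8, S100a9 and Trem1, which were lower. For every other called gene named below, leaving out at least 1 library ended the call. KO and WT libraries did not overlap in 506 genes (3.36%), of which 69 were called, namely all 21 higher and 48 of the lower genes. With 4 against 4 libraries, chance alone separates the groups of a gene with a probability of 0.0286 (exact, either direction). Lack of overlap was also a condition for naming the largest rises and falls. It is therefore not separate evidence for those genes.

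**Figure D2:**
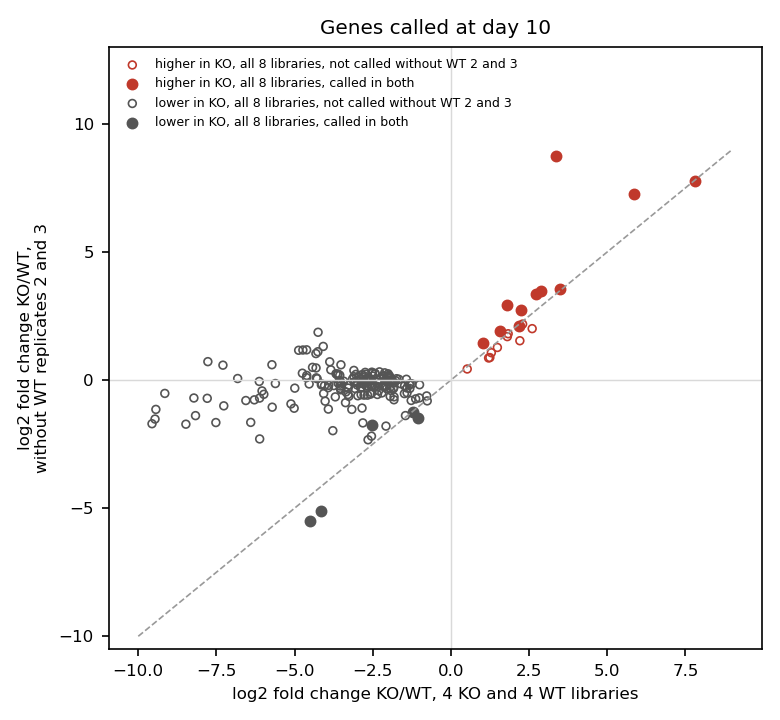
Log2 fold change of KO over WT for the 212 called genes, with all libraries (horizontal axis) and without WT replicates 2 and 3 (vertical axis); filled points were called in both fits and the dashed line marks equal values. The 21 higher genes (red) lie near the line apart from low-count genes, while most of the 191 lower genes (grey) lie near 0 on the vertical axis.

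The targeted gene was present in every KO library. Pld4 had 24.3, 36.1, 38.6 and 50.3 CPM in KO replicates 1 to 4, against 68.7, 85.4, 117 and 54.6 CPM in WT replicates 1 to 4. Every KO library was below every WT library, with KO replicate 4 close to WT replicate 4. The log2 fold change was -1.13 ± 0.27 (SE; adjusted p = 0.0331). The call was lost with the replicate number in the model (adjusted p = 0.0911), without WT replicates 2 and 3 (-0.74, adjusted p = 0.715) and without any 1 KO library, WT replicate 2 or WT replicate 3 (-1.31 to -0.90, adjusted p up to 0.154). In control kidneys Pld4 was not lower in KO, at 9.48 CPM ± 2.48 in KO and 6.69 ± 1.61 in WT (SD). Its log2 fold change there was 0.50 ± 0.29 (SE; adjusted p = 0.438). At day 5 it averaged 20.3 CPM ± 8.48 in KO and 48.3 ± 1.84 in WT (-1.25 ± 0.27, adjusted p = 0.0724). Since the deleted part is not given, counts over the whole gene do not show what remains of the protein. In bulk kidney RNA, fewer cells of a type and less RNA per cell cannot be told apart, for Pld4 and for every leukocyte gene below.

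The largest falls in KO were genes that neutrophils carry. On the list of neutrophil surface and cytosolic genes, 12 of the 14 members tested were lower in KO and none was higher, with a median log2 fold change of -6.55. The summed level of the list was 30.8 to 49.5 CPM in KO, against 53.9, 4782, 8124 and 46.3 CPM in WT replicates 1 to 4. The 4 KO libraries and WT replicates 1 and 4 thus shared 1 low level, and WT replicates 2 and 3 held nearly all of the signal. Without WT replicates 2 and 3 the median was -0.51 and no member was called, and 5 were called with the replicate number in the model.

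S100a8 and S100a9 encode the 2 subunits of calprotectin, the main cytosolic protein of neutrophils. S100a9 had 1.35, 1.71, 2.10 and 1.71 CPM in KO replicates 1 to 4, against 3.93, 1930, 3280 and 7.25 CPM in WT replicates 1 to 4. S100a8 had 0.647, 0.767, 1.88 and 1.08 CPM in KO, against 2.56, 991, 2140 and 3.76 CPM in WT. For both genes every KO library was below every WT library, including WT replicates 1 and 4. The log2 fold changes were -9.56 ± 1.52 for S100a9 (adjusted p = 0.00479) and -9.46 ± 1.52 for S100a8 (adjusted p = 0.00529), called in all 8 fits that left out 1 library and with the replicate number in the model. With WT replicates 2 and 3 left out they were -1.70 (adjusted p = 0.261) and -1.52 (adjusted p = 0.551).

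Receptors of neutrophils followed the same order of libraries. Cxcr2, the receptor for Cxcl1, Cxcl2, Cxcl3 and Cxcl5, had 0.411, 0.295, 0.376 and 0.399 CPM in KO, against 1.09, 135, 140 and 1.27 CPM in WT. Its log2 fold change was -7.52 ± 1.19 (adjusted p = 0.00479), and -1.66 without WT replicates 2 and 3 (adjusted p = 0.193). Il1r2, the decoy receptor for interleukin-1, had 1.12, 1.42, 1.77 and 0.911 CPM in KO, against 2.32, 201, 206 and 2.12 CPM in WT. All KO values lay below all WT values for both receptors. Il1r2 changed by -6.29 ± 1.04 (adjusted p = 0.00544), and by -0.77 without WT replicates 2 and 3 (adjusted p = 1). The lectin receptors Clec4d and Clec4e changed by -8.48 ± 1.34 (adjusted p = 0.00479) and -8.22 ± 1.38 (adjusted p = 0.00544), with KO libraries below all WT libraries. Both lectin calls were lost with the replicate number in the model (adjusted p = 0.0503 for Clec4d and 0.0597 for Clec4e) and without WT replicates 2 and 3 (-1.72 and -0.70, adjusted p = 0.172 and 1). Trem1, an amplifying receptor of myeloid cells that was chosen after its values were seen, changed by -7.27 ± 1.23 (adjusted p = 0.00545), and by -1.01 without WT replicates 2 and 3 (adjusted p = 1).

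Of 11 granule protein genes tested, 7 were lower in KO, with a median log2 fold change of -2.15, and 0 were called without WT replicates 2 and 3 (median 0.143) or with the replicate number in the model. Ltf, lactotransferrin of specific granules, had 0.823, 0.826, 0.430 and 0.342 CPM in KO, against 0.521, 242, 139 and 0.265 CPM in WT. WT replicate 1 lay within the KO range and WT replicate 4 below it. Ltf changed by -7.29 ± 1.32 (adjusted p = 0.00929, and 0.0621 with the replicate number in the model), and by 0.58 without WT replicates 2 and 3. The list kept 0 to 2 calls when any 1 KO library, WT replicate 2 or WT replicate 3 was left out. Primary granule genes were too low to test. Elane, neutrophil elastase, had 0, 1, 0 and 0 counts in KO, against 0, 3, 12 and 0 counts in WT. Genes high in only 2 libraries were also kept out by the filter, which asks for a minimum count in at least 4. Retnlg, a resistin-like protein of neutrophils, had 2, 2, 4 and 2 counts in KO, against 2, 6633, 4809 and 12 counts in WT. Ngp, a granule protein, had 0, 1, 0 and 0 counts in KO, against 0, 155, 613 and 0 counts in WT.

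Several genes of chemokines and their receptors were also lower in KO, again with WT replicates 2 and 3 the highest libraries. On the CXC list 5 of 18 genes were lower (Cxcl2, Cxcl3, Cxcl5, Pf4 and Cxcr2; median -1.40), and on the CC list 6 of 21 (Ccl3, Ccl4, Ccl6, Ccl9, Ccl11 and Ccr1; median -1.26). Neither list had a call without WT replicates 2 and 3, and with the replicate number in the model only Cxcr2 was called. Cxcl3 had 0.588, 0.413, 0.323 and 0.569 CPM in KO, against 1.52, 433, 116 and 0.952 CPM in WT. Cxcl5 had 6.94, 7.08, 11.6 and 9.0 CPM in KO, against 24.4, 700, 384 and 12.4 CPM in WT. Both were below WT in every KO library. Cxcl3 changed by -8.17 ± 1.34 (adjusted p = 0.00544) and Cxcl5 by -5.01 ± 0.87 (adjusted p = 0.00969), and both had an adjusted p of 0.0597 with the replicate number in the model. They changed by -1.39 and -1.10 without WT replicates 2 and 3 (adjusted p = 0.321 and 0.27). Cxcl5 also missed the threshold without KO replicate 1, 2 or 4 (adjusted p up to 0.0612).

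Cxcl2 and Cxcl3 lie in 1 cluster of chemokine genes, known as targets of NF-kappaB, and their promoters are shown because both genes moved with WT replicates 2 and 3. Each holds 1 match to the kappa-B motif, searched on both strands as GGGA and TTTCC with any 1 base between them (capitals), which begins 97 bases before the start of the gene in Cxcl2 and 73 bases before it in Cxcl3. The motif was found in 135 of 32851 promoters of 300 bases (0.411%), and in 3 of the 146 lower genes with a promoter in the table (2.05%; Cxcl2, Cxcl3 and Pglyrp1). Among all genes tested with a promoter there it was in 64 of 11253 (0.569%), among genes higher in KO with all libraries in 0 of 10, and among those higher without WT replicates 2 and 3 in 2 of 40 (5%; B2m and Gbp5), so that its share was not highest in the lower genes. A match is a description of the sequence and not a measured binding site. The sequences are from RefSeq, build GRCm38.p6, + strand, at chr5:90903649-90903948 for Cxcl2 and chr5:90785851-90786150 for Cxcl3, and run from 250 bases before the start to 50 bases after it.
Cxcl2: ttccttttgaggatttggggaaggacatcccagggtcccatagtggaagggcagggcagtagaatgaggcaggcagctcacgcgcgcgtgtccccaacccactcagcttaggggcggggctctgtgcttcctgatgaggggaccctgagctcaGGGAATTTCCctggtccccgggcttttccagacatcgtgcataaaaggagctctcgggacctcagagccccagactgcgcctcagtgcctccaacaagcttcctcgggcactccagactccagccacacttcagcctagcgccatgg
Cxcl3: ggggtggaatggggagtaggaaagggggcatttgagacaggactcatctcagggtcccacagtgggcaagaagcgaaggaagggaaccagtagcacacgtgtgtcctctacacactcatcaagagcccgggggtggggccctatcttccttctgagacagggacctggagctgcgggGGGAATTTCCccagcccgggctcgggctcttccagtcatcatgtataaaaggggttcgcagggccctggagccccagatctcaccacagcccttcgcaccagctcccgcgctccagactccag

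Cxcl2 had 13.5, 18.1, 6.13 and 8.48 CPM in KO, against 10.7, 725, 500 and 8.36 CPM in WT. Unlike Cxcl3, its WT replicates 1 and 4 lay inside the KO range, and it changed by -4.75 ± 0.99 (adjusted p = 0.017, and 0.0873 with the replicate number in the model) with all libraries and by 0.27 without WT replicates 2 and 3. Of the CC group, Ccl6 had 23.6, 29.9, 28.6 and 38.5 CPM in KO, against 48.6, 603, 255 and 42.9 CPM in WT. Ccl9 had 32.2, 38.3, 33.8 and 40.1 CPM in KO, against 48.9, 448, 284 and 52.1 CPM in WT. These macrophage chemokines did not overlap between genotypes. They changed by -2.98 ± 0.56 (Ccl6, adjusted p = 0.0121) and -2.53 ± 0.49 (Ccl9, adjusted p = 0.0157), and their receptor Ccr1 by -4.02 ± 0.74 (adjusted p = 0.00982). The 3 calls were lost with the replicate number in the model (adjusted p = 0.0597, 0.0597 and 0.0503) and without WT replicates 2 and 3 (-0.61, -0.49 and -0.82, adjusted p = 0.836, 1 and 1), and those of Ccl6 and Ccl9 also without any 1 KO library or WT replicate 2 (adjusted p up to 0.0714 and 0.0805).

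Macrophage and interleukin-1 genes were also lower in KO, most of them with the same 2 WT libraries highest. The macrophage activation list had 7 of 15 members lower (median -2.85, and 0.222 without WT replicates 2 and 3), the monocyte and macrophage list 6 of 24 (median -0.79, and 0.0894), and the interleukin-1 and inflammasome list 4 of 14 (median -0.998, and 0.219). With the replicate number in the model Il1r2 was the 1 gene of these lists that was called. None of the called genes of these lists was called without WT replicates 2 and 3, but Retnla, a resistin-like protein of alternatively activated macrophages in mice that was chosen after its values were seen, was then lower in KO. Retnla had 0.999, 0.885, 1.56 and 0.797 CPM in KO, against 17.7, 0.964, 0.0605 and 5.50 CPM in WT, with WT replicates 1 and 4 the high ones. It changed by -2.51 ± 0.94 with all libraries (adjusted p = 0.216) and by -3.45 without WT replicates 2 and 3 (adjusted p = 0.0169). Arg1, the arginase of alternatively activated macrophages, had 0.470, 0.767, 0.753 and 0.740 CPM in KO, against 1.90, 1260, 655 and 1.11 CPM in WT. Its groups did not overlap, and it changed by -9.44 ± 1.60 (adjusted p = 0.00545, and 0.0597 with the replicate number in the model), and by -1.15 without WT replicates 2 and 3 (adjusted p = 1). Nos2, the inducible nitric oxide synthase of classically activated macrophages, had 5.0, 3.90, 7.58 and 7.80 CPM in KO, against 5.45, 114, 401 and 3.07 CPM in WT. Il1b had 21.7, 34.8, 11.8 and 7.0 CPM in KO, against 6.87, 669, 755 and 3.33 CPM in WT. WT replicate 1 lay within the KO range for Nos2, WT replicate 4 lay below it, and both lay below every KO library for Il1b. Nos2 changed by -4.43 ± 0.92 (adjusted p = 0.017) and by 0.50 without WT replicates 2 and 3, while Il1b changed by -4.25 ± 1.05 (adjusted p = 0.0434) and by 1.87 (adjusted p = 0.282). With the replicate number in the model their adjusted p was 0.0958 and 0.145.

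The receptors of resident and scavenging macrophages were lower by smaller factors. Fcgr3 had 39.9, 55.2, 64.2 and 72.2 CPM in KO, against 67.9, 477, 382 and 66.6 CPM in WT. Msr1 had 6.64, 9.74, 11.5 and 11.6 CPM in KO, against 10.5, 118, 199 and 10.1 CPM in WT. For both, WT replicates 1 and 4 lay within the KO range. Fcgr3, a low-affinity IgG receptor, changed by -2.10 ± 0.44 (adjusted p = 0.017), Msr1, a scavenger receptor, by -3.10 ± 0.63 (adjusted p = 0.0165), and Cd163, the haemoglobin scavenger receptor, by -3.92 ± 0.82 (adjusted p = 0.017). Cd163 had 0.529, 0.413, 0.968 and 0.626 CPM in KO, against 1.47, 32.8, 3.39 and 1.32 CPM in WT, so that WT replicate 2 alone was far above the rest. Without WT replicate 2 its change was -1.68. None of the 3 was called with the replicate number in the model (adjusted p = 0.0597 for Fcgr3, 0.0602 for Msr1 and 0.0926 for Cd163) or without WT replicates 2 and 3 (-0.23, -0.0737 and -1.13, adjusted p = 1 each). In the complement list 2 of 21 genes were lower, the anaphylatoxin receptor C5ar1 by -2.85 ± 0.57 (adjusted p = 0.0164) and properdin (Cfp) by -2.33 ± 0.48 (adjusted p = 0.017), each with an adjusted p of 0.0597 with the replicate number in the model. Both changes were small without WT replicates 2 and 3 (-0.28 and -0.26, adjusted p = 1 each).

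**Figure D3:**
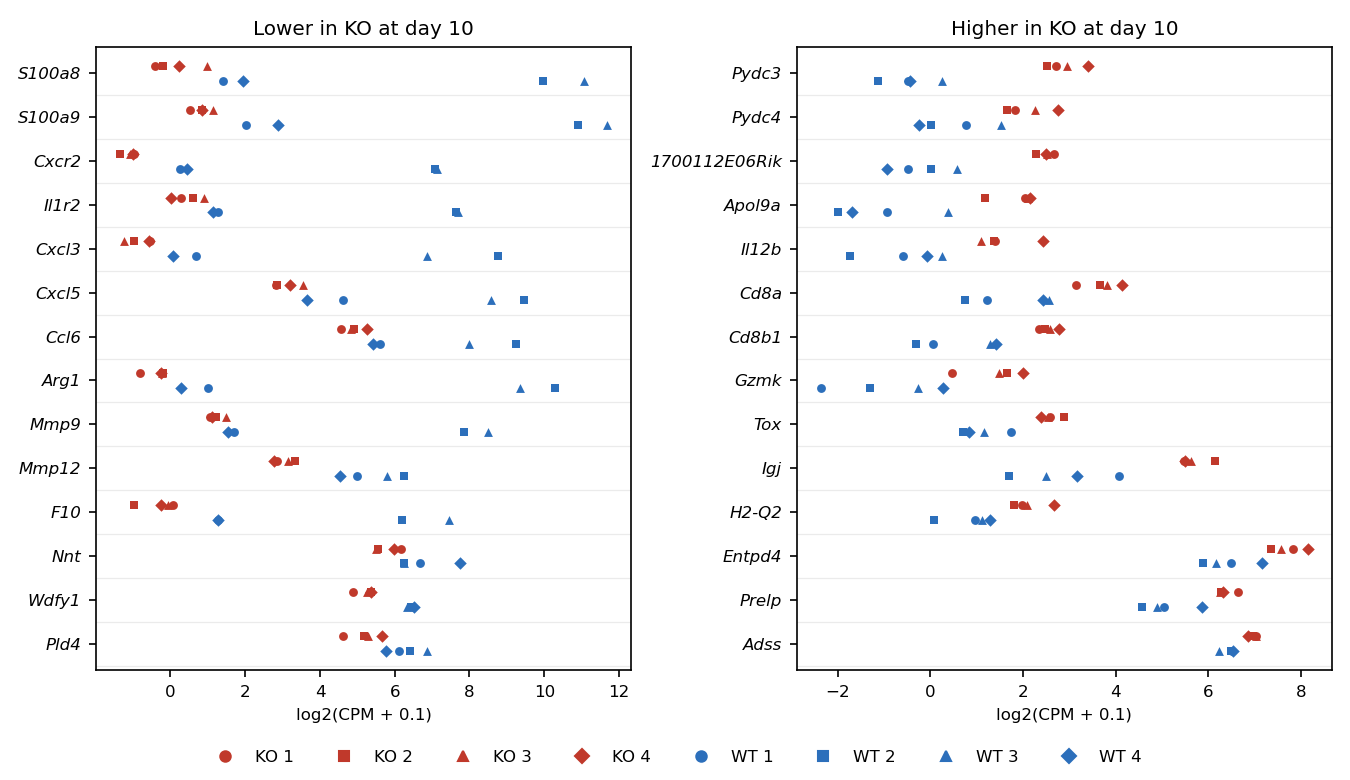
CPM of 28 named genes on the scale log2(CPM + 0.1) in each day 10 library, KO (red) above WT (blue) in each row, with 1 symbol per replicate number. In the left panel WT replicates 2 and 3 stand far to the right for S100a8, S100a9, Cxcr2, Il1r2, Cxcl3, Cxcl5, Ccl6, Arg1, Mmp9 and F10, and less so for Mmp12 and Pld4. For Nnt and Wdfy1 they are the lowest WT libraries, and in the right panel every KO library lies right of every WT library. Lack of overlap was a condition for naming the largest rises and falls.

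Among proteases, 5 of 18 metalloproteinase and ADAMTS genes were lower in KO (Mmp7, Mmp8, Mmp9, Mmp12 and Mmp13; median -0.69), and with the replicate number in the model Mmp8 and Mmp12 were. The median had the other sign, 0.073, without WT replicates 2 and 3, and Mmp12 alone was called. Mmp12, the elastase of macrophages, had 7.05, 9.91, 8.76 and 6.72 CPM in KO, against 31.9, 76.1, 55.4 and 23 CPM in WT. Every WT library exceeded every KO library, WT replicates 1 and 4 included. Mmp12 changed by -2.52 ± 0.38 (adjusted p = 0.00384), by -2.42 with the replicate number in the model (adjusted p = 0.000637) and by -1.77 without WT replicates 2 and 3 (adjusted p = 0.0243), and it was called in all 8 fits that left out 1 library. It was the 1 lower gene called under all of these settings. Mmp9, a gelatinase of neutrophils and macrophages, had 2.0, 2.24, 2.69 and 2.05 CPM in KO, against 3.18, 229, 359 and 2.80 CPM in WT. Its groups did not overlap, by a narrow margin for WT replicates 1 and 4, and it changed by -6.04 ± 1.07 (adjusted p = 0.00776, and 0.0597 with the replicate number in the model). It changed by -0.42 without WT replicates 2 and 3. Mmp8, the collagenase of neutrophils, changed by -7.79 ± 1.31 (adjusted p = 0.00544) and by -0.71 without these libraries.

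Timp1, the inhibitor of many metalloproteinases, had 22.9, 31.8, 54.5 and 34.0 CPM in KO, against 50.3, 1390, 197 and 33.2 CPM in WT. It overlapped between genotypes and changed by -3.54 ± 0.78 (adjusted p = 0.0222, and 0.118 with the replicate number in the model), by -1.39 without WT replicate 2 (adjusted p = 0.303), and by -0.23 without WT replicates 2 and 3 (adjusted p = 1). Plaur, the urokinase receptor, changed by -2.35 ± 0.51 (adjusted p = 0.0203, and 0.0761 with the replicate number in the model), and by -0.0772 without WT replicates 2 and 3 (adjusted p = 1). The coagulation genes F10, F7 and F13a1, outside these lists, fell and were among the 11 lower calls with the replicate number in the model. F10, coagulation factor X, had 0.940, 0.413, 0.860 and 0.740 CPM in KO, against 2.32, 73.2, 176 and 2.33 CPM in WT. F7, coagulation factor VII, had 0.0588, 0.413, 0.215 and 0.171 CPM in KO, against 1.04, 17.3, 42.3 and 1.11 CPM in WT. F13a1, the transglutaminase subunit of factor XIII, had 3.12, 2.77, 4.19 and 1.88 CPM in KO, against 6.31, 168, 237 and 5.03 CPM in WT. In each of the 3 genes all KO libraries were below all WT libraries, with WT replicates 2 and 3 far above. F10 changed by -6.40 ± 1.01 (adjusted p = 0.00479), F7 by -6.12 ± 0.99 and F13a1 by -5.12 ± 0.86 (adjusted p = 0.00544 each), and none was called without WT replicates 2 and 3 (-1.65, -2.30 and -0.93, adjusted p = 0.0911, 0.119 and 0.758). F7 and F13a1 were chosen after their values were seen.

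In 10 of the 191 lower genes WT replicates 2 and 3 were not the highest pair (Camk2b, Fkbp5, G530011O06Rik, Hif3a, Nnt, Rasl12, Serpina1a, Serpina1d, Uox and Wdfy1). Wdfy1, an endosomal adaptor of Tlr3 and Tlr4 signalling, had 29.4, 41.5, 38.1 and 41.0 CPM in KO, against 87.8, 86.0, 80.0 and 91.4 CPM in WT. Nnt, the mitochondrial enzyme that makes NADPH from NADH, had 72.0, 47.0, 44.8 and 63.2 CPM in KO, against 102, 75.3, 76.6 and 216 CPM in WT. The 4 WT libraries lay close together for Wdfy1, whereas for Nnt WT replicate 4 was highest, and neither gene overlapped between genotypes. Wdfy1 changed by -1.20 ± 0.22 (adjusted p = 0.00842), by -1.27 without WT replicates 2 and 3 (adjusted p = 0.0263) and missed the threshold only without KO replicate 1 among the fits that left out 1 library (adjusted p = 0.0612). Nnt changed by -1.05 ± 0.27 (adjusted p = 0.0492), by -1.50 without WT replicates 2 and 3 (adjusted p = 0.00545), and was not called with the replicate number in the model (adjusted p = 0.0597) or without any 1 KO library or WT replicate 4 (adjusted p up to 0.172).

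Of the glucocorticoid-responsive list, 3 of 10 genes were lower (Fkbp5, Mt1 and Mt2; median -1.23), and 0 without WT replicates 2 and 3 (median -0.58), where the metallothioneins Mt1 and Mt2 changed by -0.50 and -0.65 (adjusted p = 1 each). Fkbp5, a co-chaperone of the glucocorticoid receptor, had 51.8, 65.9, 66.8 and 65.4 CPM in KO, against 54.3, 197, 163 and 271 CPM in WT. WT replicate 1 lay in the KO range and the other 3 WT libraries above it, and Fkbp5 changed by -1.45 ± 0.35 (adjusted p = 0.0402, and 0.0597 with the replicate number in the model). Its change without WT replicates 2 and 3 was -1.39 (adjusted p = 0.282). Hif3a, a hypoxia-inducible factor subunit chosen after its values were seen, had 1.53, 1.71, 1.18 and 1.71 CPM in KO, against 1.90, 13, 10.2 and 13.5 CPM in WT. It had the same 3 WT libraries high, and changed by -2.65 ± 0.53 (adjusted p = 0.0164, and 0.0597 with the replicate number in the model), and by -2.33 without WT replicates 2 and 3 (adjusted p = 0.111). In the glycolysis and hypoxia list 3 of 19 genes were lower, among them the lactate transporter Slc16a3 by -4.14 ± 0.84 (adjusted p = 0.0165, and 0.0597 with the replicate number in the model), and its median was -0.41. With WT replicates 2 and 3 left out the list had 0 calls and a median of -0.0802, and Slc16a3 changed by -0.19 (adjusted p = 1).

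The genes that rose in KO were few and low to moderate in level. Pydc3, an interferon-inducible pyrin domain gene of the Ifi200 family, had 6.47, 5.61, 7.64 and 10.5 CPM in KO, against 0.616, 0.355, 1.09 and 0.635 CPM in WT. Pydc4, its close relative, had 3.47, 3.07, 4.68 and 6.66 CPM in KO, against 1.61, 0.913, 2.78 and 0.741 CPM in WT. Neither overlapped between genotypes. Pydc3 changed by 3.49 ± 0.39 (adjusted p = 7.77e-05) and was called in all 8 fits that left out 1 library, with the replicate number in the model, and without WT replicates 2 and 3 (3.57, adjusted p = 0.000315). Pydc4 changed by 1.57 ± 0.34 (adjusted p = 0.0203), and by 1.90 without WT replicates 2 and 3 (adjusted p = 0.0206), but was not called with the replicate number in the model (adjusted p = 0.0597) or without KO replicate 1, 3 or 4 or WT replicate 2 (adjusted p up to 0.1). Genes of this family are near-identical in sequence, and how the counting split their reads is not given.

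Apol9a, 1700112E06Rik and Gm15446 were chosen after their values were seen, because they were called under every one of these settings. Apol9a, an interferon-inducible apolipoprotein L gene with a near-identical copy, Apol9b, had 4.00, 2.18, 4.19 and 4.33 CPM in KO, against 0.427, 0.152, 1.21 and 0.212 CPM in WT, and changed by 2.90 ± 0.48 (adjusted p = 0.00544). The unnamed gene 1700112E06Rik had 6.23, 4.78, 5.65 and 5.52 CPM in KO, against 0.616, 0.913, 1.39 and 0.423 CPM in WT, and changed by 2.73 ± 0.30 (adjusted p = 7.77e-05). Gm15446 had 123 counts over the 4 KO libraries and 0 over the 4 WT libraries, which is at least 44.6-fold higher in KO when 3 counts are taken as the upper limit for the WT group. In these 3 genes every KO library was above every WT library, and KO replicate 2 stood below the other KO libraries for Apol9a. Without WT replicates 2 and 3 Apol9a changed by 3.47 (adjusted p = 0.00286) and 1700112E06Rik by 3.38 (adjusted p = 1.51e-05). The bound on Gm15446 covers counting error only.

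Serpins of the alpha-1 antitrypsin group differed in both directions. Serpina1e had 1.47, 1.42, 1.02 and 0.968 CPM in KO, against 0, 0, 0.0605 and 0 CPM in WT. With 85 counts in KO and 1 count in WT, the ratio was 92.4 (95% counting interval 16.1 to 3690). Serpina1a, which encodes an elastase inhibitor, had 0.999, 0.708, 0.269 and 0.626 CPM in KO, against 17, 0.507, 0.544 and 28.1 CPM in WT. Serpina1d had 1.12, 1.00, 1.08 and 1.14 CPM in KO, against 17.1, 0.152, 0.363 and 80.9 CPM in WT. For Serpina1a and Serpina1d it was WT replicates 1 and 4 that were high, and WT replicates 2 and 3 were within or below the KO range. Serpina1a changed by -4.15 ± 0.88 (adjusted p = 0.0176) and by -5.12 without WT replicates 2 and 3 (adjusted p = 6.38e-07). It was not called with the replicate number in the model (adjusted p = 0.0763) or without any 1 KO library (adjusted p up to 0.0816). Serpina1d changed by -4.50 ± 1.05 (adjusted p = 0.0313, and 0.136 with the replicate number in the model), and by -5.49 without WT replicates 2 and 3 (adjusted p = 3.05e-06). Serpina3m changed by 3.36 ± 0.77 (adjusted p = 0.0333, and 0.0597 with the replicate number in the model), and had 2.62 to 4.52 CPM in KO and 0 to 1.12 CPM in WT. Its adjusted p was 0.00152 without WT replicates 2 and 3, where both remaining WT libraries had 0 counts. The authors' FPKM values did not give the Serpina1 calls: on log2(FPKM + 1) with limma, Serpina1e changed by 0.102 (adjusted p = 0.907), Serpina1a by -0.84 (adjusted p = 0.42) and Serpina1d by -1.04 (adjusted p = 0.391). With sample weights on the counts Serpina1a and Serpina1d changed by -2.2 and -0.733 (adjusted p = 0.369 and 0.781). These genes are near-identical copies, so their separate values are uncertain. In all, 2 of 20 protease inhibitors tested were higher and 3 lower, with Slpi, the secretory leukocyte peptidase inhibitor, changing by -5.62 ± 1.06 (adjusted p = 0.0124, and 0.0597 with the replicate number in the model), and by -0.14 without WT replicates 2 and 3 (adjusted p = 1).

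Several of these calls lie on the chromosome of Pld4. Of the 21 higher genes, 4 lie on it (19%; 4930427A07Rik, Dnah11, Serpina1e and Serpina3m), as do 11 of 190 lower genes with a place (5.79%). Of the 69 calls without overlap 7 lie on it (10.1%), and of the 16 genes called with and without WT replicates 2 and 3, 5 do (31.2%). Of all genes tested with a place in the RefSeq table of GRCm38.p6, 512 of 15025 do (3.41%). The 5 genes called with and without WT replicates 2 and 3 are 4930427A07Rik and the serpins Serpina1a, Serpina1d, Serpina1e and Serpina3m. These serpins lie near each other, 82 to 98 annotated protein-coding genes from Pld4, and the Serpina1 genes are near-identical copies. The shares thus count neighbouring serpins as separate genes, and do not show an excess along the whole chromosome. The Serpina1 genes are separated from Pld4 by 95 to 98 annotated protein-coding genes, 4930427A07Rik by 15 and Dnah11 by 27. On a list of genes near Pld4, 1 of 25 tested was called, Adssl1, which was lower. That list leaves out 4930427A07Rik. Whether position plays a part in these differences was not tested.

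Lymphocyte genes made up another part of the higher calls. Cd8a and Cd8b1 encode the 2 chains of the CD8 co-receptor of cytotoxic T cells. Cd8a had 8.70, 12.5, 14 and 17.6 CPM in KO, against 2.23, 1.57, 5.81 and 5.29 CPM in WT. Cd8b1 had 5.00, 5.43, 5.86 and 6.72 CPM in KO, against 0.948, 0.710, 2.36 and 2.59 CPM in WT. Every KO library exceeded every WT library for both chains. Cd8a changed by 1.83 ± 0.38 (adjusted p = 0.017) and Cd8b1 by 1.80 ± 0.43 (adjusted p = 0.0331). They were the 2 of 17 T cell genes that were called, and 12 of the 17 had a log2 fold change below 0. The list as a whole had a median of -0.0487, and of 1.05 without WT replicates 2 and 3. WT replicate 3 had the highest T cell score of the 8 libraries, 3.66 on the log2 CPM scale, against 1.99 to 2.76 in KO and 1.22 to 1.47 in the other WT libraries.

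Other immune genes that rose were Gzmk, a granzyme of memory T cells, by 2.29 ± 0.53 (adjusted p = 0.028), Tox, a transcription factor of T cells under lasting stimulation, by 1.49 ± 0.31 (adjusted p = 0.017), and Il12b, the p40 chain of interleukins 12 and 23, by 2.19 ± 0.40 (adjusted p = 0.0101). Igj, the joining chain of secreted IgA and IgM, had 44.0, 70.7, 49.0 and 45.3 CPM in KO, against 16.8, 3.15, 5.50 and 8.89 CPM in WT. H2-Q2, a nonclassical class I gene, had 3.82, 3.42, 4.14 and 6.26 CPM in KO, against 1.85, 0.964, 2.06 and 2.33 CPM in WT. All KO libraries were above all WT libraries in these genes, as in all 21 higher genes. Igj changed by 2.60 ± 0.53 (adjusted p = 0.0165) and H2-Q2 by 1.29 ± 0.28 (adjusted p = 0.0198). Gzmk was the 1 call among 12 NK and cytotoxic genes (median 0.588, 4 below 0). Il12b was the 1 call among 16 dendritic cell genes (median 0.336, 7 below 0) and among 11 Th1 genes (median -0.161, 7 below 0). Igj was the 1 call among 11 B and plasma cell genes (median 0.0778, 5 below 0). Without WT replicates 2 and 3 these medians were 0.97, 0.46, 1.2 and 0.787. With the replicate number in the model Il12b and H2-Q2 were called (adjusted p = 0.0414 and 0.0404), and Cd8a, Gzmk, Tox and Igj had an adjusted p of 0.0597 and Cd8b1 of 0.0763. Without WT replicates 2 and 3, Il12b was called at 2.11 (adjusted p = 0.0299), and Cd8a, Cd8b1, Gzmk, Tox, Igj and H2-Q2 were not (1.81, 1.70, 2.19, 1.27, 2.01 and 1.07, adjusted p of 0.0628 to 0.265). Leaving out KO replicate 2, 3 or 4 or WT replicate 2 also ended the calls of Cd8a, Cd8b1, Gzmk, Tox, Igj and H2-Q2 (adjusted p up to 0.14), and that of Il12b was lost without KO replicate 4 (adjusted p = 0.0586). Cd8a, Cd8b1, Gzmk, Il12b and Igj were also higher in KO in control kidneys.

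Outside the immune genes, Adss, an enzyme of AMP synthesis, had 130, 124, 130 and 115 CPM in KO, against 91.1, 89.6, 74.5 and 92.4 CPM in WT. Its change was small and its spread smaller, 0.52 ± 0.09 (adjusted p = 0.00544), and it was called in all 8 fits that left out 1 library and with the replicate number in the model (adjusted p = 0.0356), but not without WT replicates 2 and 3 (0.43, adjusted p = 0.0784). Entpd4, a nucleotidase of the Golgi and lysosomes, had 226, 164, 189 and 282 CPM in KO, against 89.7, 59.1, 71.3 and 143 CPM in WT. Prelp, a leucine-rich proteoglycan of connective tissue, had 100, 77.3, 75.9 and 79.1 CPM in KO, against 32.6, 23.6, 29.7 and 58.4 CPM in WT. WT replicate 4 was the WT library nearest to KO for both. Entpd4 changed by 1.25 ± 0.28 (adjusted p = 0.0269) and Prelp by 1.21 ± 0.30 (adjusted p = 0.0462). They were not called with the replicate number in the model (adjusted p = 0.0563 and 0.0597), without WT replicates 2 and 3 (adjusted p = 0.575 and 0.796), or without any 1 KO library, WT replicate 2 or WT replicate 3 (adjusted p up to 0.13 and 0.215).

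Interferon response genes gave no call by edgeR with all libraries and several without WT replicates 2 and 3. With all libraries, 0 of 22 type I interferon response genes and 0 of 20 interferon-gamma GTPase and MHC genes were called by edgeR (4 and 0 with DESeq2), with medians of 0.70 and 0.46. Without WT replicates 2 and 3, 10 and 4 were higher in KO and none lower, with medians of 1.21 and 1.39, and 50 of the 53 genes newly called were higher. WT replicate 3 decided this: leaving it out alone gave 13 and 14 higher genes, and leaving out WT replicate 2 alone gave 0 and 0. These genes were chosen for naming after their values were seen, apart from Irf7 and Ifit2.

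Irf7, the transcription factor that amplifies type I interferon, had 135, 121, 164 and 268 CPM in KO, against 51.3, 30.9, 158 and 48.5 CPM in WT. Isg15, a ubiquitin-like interferon product, had 34.6, 28.9, 50.2 and 64.3 CPM in KO, against 15, 21.8, 65.1 and 11.5 CPM in WT. In both genes the KO libraries were above WT replicates 1, 2 and 4, while WT replicate 3 was within the KO range for Irf7 and above every KO library for Isg15. With all libraries Irf7 changed by 1.26 ± 0.36 (adjusted p = 0.0897) and Isg15 by 0.65 ± 0.42 (adjusted p = 0.479). When WT replicates 2 and 3 were left out the changes were 1.78 (adjusted p = 0.00636) and 1.73 (adjusted p = 0.0482). Without these libraries the GTPase Tgtp2 changed by 2.92 (adjusted p = 0.00291), Parp9 by 0.94 (adjusted p = 0.00152) and the class I light chain B2m by 1.16 (adjusted p = 0.0261).

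The promoter of Isg15 is shown as an example of the element through which interferon acts. It holds 3 overlapping matches to the motif GAAA, any 2 bases, GAAA (capitals, searched on both strands), the first of which begins 78 bases before the start of the gene. The motif was found in 1131 of 32851 promoters (3.44%), and in 426 of the 11253 genes tested that have a promoter in the table (3.79%). It was in 14 of the 40 such genes higher without WT replicates 2 and 3 (35%). Among the 21 genes higher with all libraries it was in 1 of 10 (10%; Apol9a), and among the 191 lower in 13 of 146 (8.9%). The sequence is from RefSeq, build GRCm38.p6, - strand, chr4:156200769-156201068.
Isg15: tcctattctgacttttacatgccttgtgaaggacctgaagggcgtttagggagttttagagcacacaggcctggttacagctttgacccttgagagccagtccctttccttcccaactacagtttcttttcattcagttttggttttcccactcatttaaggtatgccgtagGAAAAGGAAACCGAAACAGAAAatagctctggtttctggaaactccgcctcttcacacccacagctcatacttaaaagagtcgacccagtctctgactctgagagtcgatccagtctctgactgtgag

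**Figure D4:**
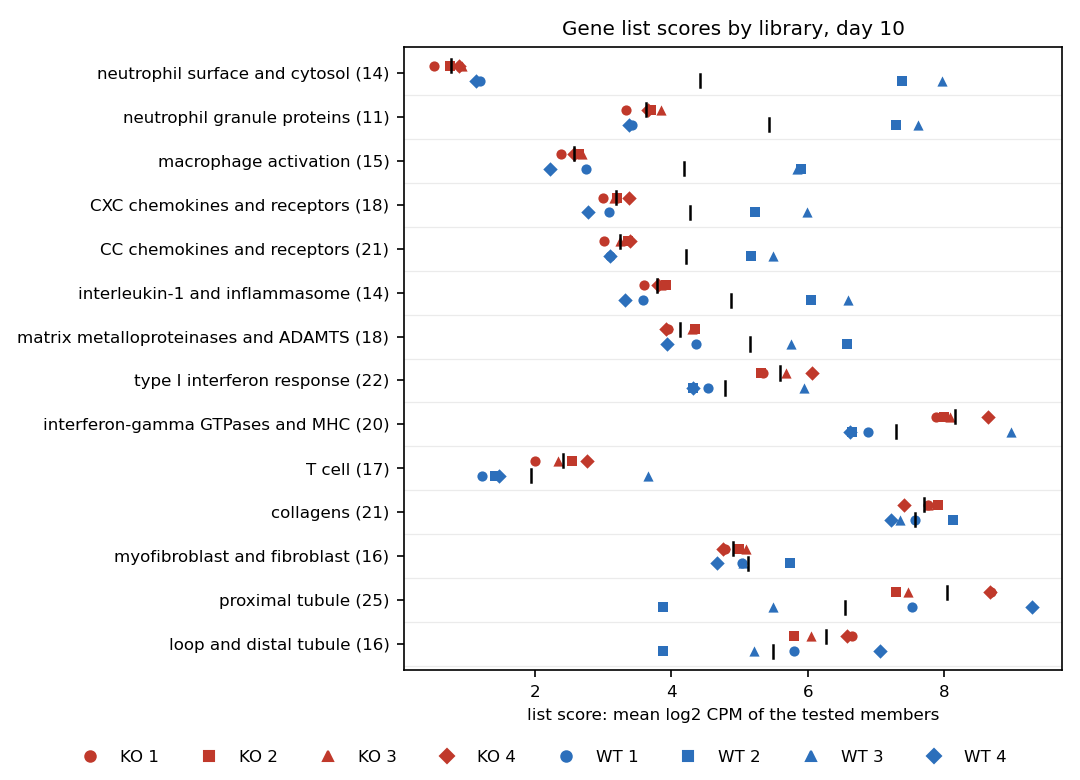
Score of 14 gene lists (mean log2 CPM of the tested members, whose number is in parentheses) in each day 10 library, KO (red) above WT (blue), with black bars for group means and 1 symbol per replicate number. WT replicates 2 and 3 stand right of all others for the neutrophil, macrophage and chemokine lists and left of all others for the tubule lists, and WT replicate 3 alone stands right for T cell and interferon-gamma genes.

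Fibrosis genes did not differ at the threshold. None of 21 collagens, 27 matrix glycoproteins and proteoglycans or 16 myofibroblast and fibroblast genes was called, with medians of 0.0791, -0.055 and -0.299. Col1a1, a chain of type I collagen, had 1090, 869, 983 and 607 CPM in KO, against 779, 2860, 1250 and 387 CPM in WT. Acta2, the smooth muscle actin of myofibroblasts, had 163, 163, 192 and 117 CPM in KO, against 148, 408, 129 and 148 CPM in WT. WT replicate 2 was the highest library for both, and the other WT libraries lay around the KO range. Col1a1 changed by -0.57 ± 0.42 (adjusted p = 0.54) and Acta2 by -0.39 ± 0.36 (adjusted p = 0.624), and without WT replicate 2 by 0.14 and 0.15. Col3a1 changed by -0.69 ± 0.44 (adjusted p = 0.473), fibronectin (Fn1) by -0.60 ± 0.37 (adjusted p = 0.464) and Tgfb1 by -0.34 ± 0.20 (adjusted p = 0.437). The SE of these genes allows differences of either sign, and a p above the threshold does not show that the genotypes were alike. Tgfbi, a matrix protein induced by TGF-beta and made by macrophages too, was the 1 of 21 TGF-beta pathway genes called, at -2.01 ± 0.47 (adjusted p = 0.0313, and 0.108 with the replicate number in the model), and had 105, 107, 125 and 124 CPM in KO, against 100, 814, 847 and 93.0 CPM in WT.

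Tubule genes went the other way in WT replicates 2 and 3. The proximal tubule list summed to 23526, 9672, 12082 and 27406 CPM in KO, against 12350, 1119, 3463 and 38128 CPM in WT. None of its 25 members, of 16 loop and distal tubule genes or of 16 collecting duct genes was called, with medians of 0.474, 0.349 and 0.23 that became -0.467, -0.255 and -0.274 without WT replicates 2 and 3. The 2 WT libraries with the highest neutrophil sums were thus the 2 with the lowest tubule sums, and the part of tissue makeup in the differences between genotypes was not tested. Within KO, replicates 2 and 3 had the lower tubule sums, at neutrophil sums of 41.9 and 42.9 CPM, with 30.8 and 49.5 CPM in replicates 1 and 4. Podocyte, endothelial, cell cycle, fatty acid oxidation and respiratory chain genes gave 0 calls of 12, 17, 19, 19 and 19.

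The widest ranges among KO libraries were in other genes. Fos, an immediate early transcription factor, had 178, 158, 18.6 and 9.85 CPM in KO, against 11.9, 90.5, 57.2 and 8.25 CPM in WT. Krt5, a keratin of basal urothelium, had 60.4, 42.6, 3.98 and 9.68 CPM in KO, against 3.37, 26.9, 0.544 and 9.47 CPM in WT. KO replicates 1 and 2 were high for both genes, and neither was called (adjusted p = 0.49 for Fos and 0.483 for Krt5).

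Day 10 was then compared with the other days. The genotype difference was tested against that at day 5 and passed the threshold in 0 genes (edgeR's quasi-likelihood test; 1277 at an unadjusted p under 0.05, and 40 with DESeq2, all lower). S100a9 averaged 1.82 CPM ± 0.93 in KO and 4.04 ± 2.2 in WT at day 5 (SD, n = 4 each), and the difference between days was -8.42 ± 1.78 (adjusted p = 0.418). Arg1 averaged 1.10 CPM ± 1.22 in KO and 0.268 ± 0.168 in WT at day 5, and its difference between days was -11.36 ± 2.30 (adjusted p = 0.418). Against day 0 the genotype difference changed in 490 genes (3.25%), 470 of them downward, and 84 of the 191 lower genes were among those. This count was 153 without WT replicates 2 and 3, with 149 downward. Both tests between days share the 8 day 10 libraries. The KO libraries at day 0 were uneven in the Y chromosome gene Kdm5d (SD 15.6 CPM, against 1.39 in WT). Its bearing on the day 0 comparisons was not tested.

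KO against WT gave 22 calls at day 5 (0.146%; 10 higher, 0.0663%, and 12 lower, 0.0796%) and 630 at day 0 (4.18%; 550 higher, 3.65%, and 80 lower, 0.531%). Of the 212 day 10 calls, 18 were also called in control kidneys (day 0) in the same direction and 4 in the opposite one, and 14 were called at day 5 in the same direction. Among those already higher in KO at day 0 were Cd8a (1.94, adjusted p = 0.00715), Cd8b1 (4.28, adjusted p = 0.000269), Gzmk (4.32, adjusted p = 0.00259) and Il12b (3.72, adjusted p = 0.000346). Genes called at all 3 days in 1 direction numbered 8 (1700112E06Rik, Gm15446, Igj, Pydc3 and Serpina1e higher, and Serpina1a, Serpina1d and Wdfy1 lower). Pydc3 averaged 5.93 CPM ± 1.34 in KO and 0.107 ± 0.161 in WT at day 0, and 4.02 ± 0.80 in KO and 0.534 ± 0.132 in WT at day 5. Wdfy1 averaged 47.0 CPM ± 12.1 in KO and 135 ± 1.11 in WT at day 0, and 24 ± 11.3 in KO and 112 ± 7.96 in WT at day 5. Both differences were thus present in control kidneys. Mmp12 averaged 0.475 CPM ± 0.342 in KO and 1.13 ± 0.34 in WT at day 0, where it was not called (adjusted p = 0.243), and 2.0 ± 0.70 in KO and 9.26 ± 4.21 in WT at day 5, where it was lower in KO by -2.21 ± 0.40 (adjusted p = 0.0184). Apol9a was called at day 0 (3.04, adjusted p = 0.00106) and not at day 5 (1.40 ± 0.45, adjusted p = 0.263).

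**Figure D5:**
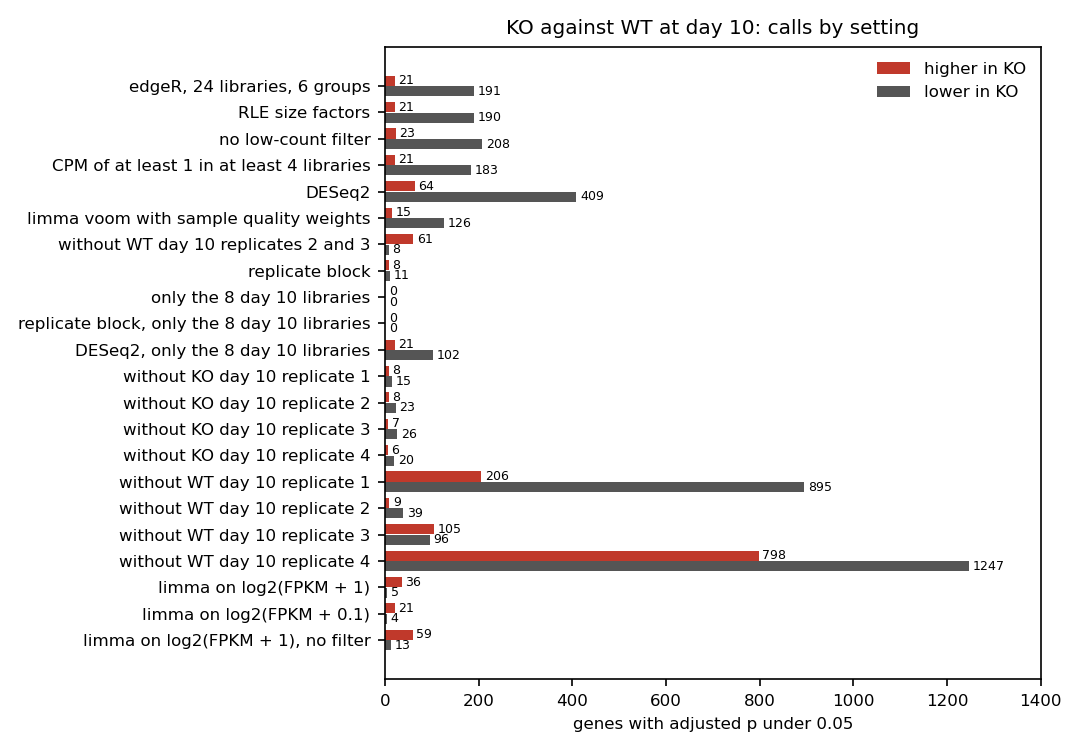
Number of genes with an adjusted p under 0.05 in KO against WT at day 10, higher (red) and lower (grey) in KO, under each way of fitting the data, with the counts at the bar ends. The count is 21 higher and 191 lower with all 24 libraries, 61 and 8 without WT replicates 2 and 3, and 0 with edgeR on the 8 day 10 libraries alone.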

How the data were processed

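Kidney RNA was extracted with TRIzol and sequenced as stranded mRNA libraries, per the labels' protocols. The authors deposited raw counts per gene and FPKM per gene. The submitters' processing notes name bcl2fastq 2.16, STAR 2.5 and Cufflinks, and build mm9. The counting tool, annotation and use of strand are not given in the sources used here, which leaves reads of overlapping or antisense genes uncertain.

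The main test used the deposited counts of 23955 symbols. After filterByExpr (a minimum count of 10 and a minimum total of 15), 15080 genes were tested. With TMM scaling, edgeR 4.0.16 in R 4.3.3 (quasi-likelihood, robust, 18 residual degrees of freedom) estimated the mean of each of the 6 groups from all 24 libraries, with Benjamini-Hochberg adjustment at 0.05. The SE is the log2 fold change divided by the square root of F. CPM is scaled to the TMM library size. List scores and principal components use log2 CPM with a prior count of 2. The scripts were tested on simulated data. The alternatives used DESeq2 1.42.0 and limma 3.58.1 (on counts with sample weights, and on log2 of the deposited FPKM plus 1 or 0.1).

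Same-numbered KO and WT day 10 libraries deviated together weakly from their group means (correlations 0.204, 0.306, 0.141 and 0.28), so a block fit is given beside the main fit. The labels do not say what a number shares. Some other pairs correlated more (0.494 for KO replicate 1 with WT replicate 4, and 0.364 for KO replicate 3 with WT replicate 2), so pairing is not shown. The replicate block adds to the model an effect of each replicate number that is common to the 6 groups. These correlations were read with the calls known.

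The comparison, the gene lists and the libraries to leave out were chosen with earlier results of these data known. Genes were named by rule: a fixed set, the 12 largest rises and falls with mean log2 CPM of at least 1 and no overlap, those also called without WT replicates 2 and 3, up to 3 genes per list, the 10 widest ranges per genotype and the 6 lowest p per difference between days. Genes outside it are said to be chosen after their values were seen. Lists are described by counts and medians, with no test. A gene withheld from the text is not reported here.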

Additional observations from a re-analysis of the deposited data

Results flagged for a closer look

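In 11 of 193 groups of 4 day 10 libraries examined for the genes named, 1 library stood apart by a gap to its nearest neighbour, as a share of the group's range of log2 CPM, above Dixon's 95% critical value, where chance gives about 1 in 20. In KO, the gap was 0.852 for Prelp (replicate 1 highest), 0.883 for Apol9a (replicate 2 lowest), 0.924 for Arg1 (replicate 1 lowest), 0.839 for Plaur (replicate 3 highest), 0.885 for Mt1 (replicate 4 lowest) and 0.912 for Fkbp5 (replicate 1 lowest). In WT, it was 0.879 for Acta2 and 0.92 for Uox (replicate 2 highest), 1 for Serpina1e (replicate 3 highest, with 1 count), 0.854 for Adss (replicate 3 lowest) and 0.851 for Hif3a (replicate 1 lowest). WT replicates 2 and 3 stand together in most lower genes, so a gap to the nearest library does not pick them out.

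The genotype difference at day 10 differed from that at day 0 for 20 of the named genes (edgeR's quasi-likelihood test, adjusted p under 0.05), in log2 units. It was lower at day 10 by -9.72 for S100a9, -7.83 for Mmp9, -7.37 for F10, -6.17 for Il1rn, -6.14 for Il1b, -5.76 for Csf3r, -5.28 for Ccr1, -5.19 for C5ar1, -4.61 for Nlrp3, -4.47 for Ccl6, -4.23 for Lyz2, -4.20 for Ccl9, -4.15 for Msr1, -3.46 for Tgfbi, -3.39 for Fcgr3, -3.12 for Cfp, -2.74 for Hif3a, -1.66 for B2m, -1.63 for Pld4 and -1.03 for Rasl12. B2m was not lower in KO at day 10 (0.3469, adjusted p = 0.604). It was higher in KO at day 0 (2.004, adjusted p = 0.000853). Lyz2 was lower in KO at day 10 (-2.303, adjusted p = 0.0279) and higher at day 0 (1.923, adjusted p = 0.0389). The other genes listed were called lower at day 10 and were not called at day 0.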

How the results depend on the processing

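The 212 calls became 473 with DESeq2, 123 with DESeq2 on the 8 day 10 libraries, 141 with limma and sample weights, 69 without WT replicates 2 and 3, 19 with the replicate block, 0 with edgeR on the 8 day 10 libraries (1043 at an unadjusted p under 0.05) and 0 there with the block, and 23 to 2045 when 1 library was left out. On FPKM they were 41 (36 higher, 5 lower), 25 (21 and 4) with a pseudocount of 0.1 and 72 (59 and 13) without a filter, against 21 and 191 on counts. FPKM moved the median log2 fold change of all genes to 0.124 and 0.147. RLE factors (211) and other count filters (231 and 204) kept the count. The 0 calls of the difference from day 5 became 40 with DESeq2 and 0 to 227 with 1 library left out. The 490 of the difference from day 0 became 849 with DESeq2, 939 with sample weights, 153 without WT replicates 2 and 3, 1, 161 and 4 on FPKM, and 281 to 1808 with 1 library left out.

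Signs turned without WT replicates 2 and 3 for Col1a1 (0.596), Col3a1 (0.512), Fn1 (0.437), Acta2 (0.0888), Tgfb1 (0.286), Ltf (0.582), Irg1 (0.719), Nos2 (0.496), Nlrp3 (0.0374), Il1rn (0.197), Osm (1.18), Tgfbi (0.245), Ccl11 (0.0868), Cxcl2 (0.268), Il1b (1.87), Cubn (-0.121) and Umod (-0.0184), and without WT replicate 2 for Col1a1 (0.137), Col3a1 (0.179), Fn1 (0.105) and Acta2 (0.155). With sample weights Retnla turned (0.173). With 1 library left out, Col1a1 ran from -0.875 to 0.137, Col3a1 from -0.995 to 0.179, Fn1 from -0.877 to 0.105 and Acta2 from -0.567 to 0.155. The cause was not tested. Over all settings and named genes, 1118 values kept direction and side of the threshold, 731 lost the call, 25 gained one and 22 turned. Fits without WT replicates 2 and 3 leave 2 WT libraries, whose spread is taken from the other groups. Low counts limit Gm15446, Serpina1e and Elane.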
